A study of Mus musculus with 9 samples.

Results

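miR-149 was followed through every entry of the small RNA count table that carries the hairpin name mmu-mir-149 or the mature name mmu-miR-149. The table held 6414 entries, of which 4351 were tags, short sequences listed with their start on a hairpin. Of these tags 22 belonged to mmu-mir-149, 21 on the 5p arm and 1 on the 3p arm. The 2 mature names, miR-149-5p and miR-149-3p, were listed as well and were at 0 in every library, so all values below come from the tags. A tag was placed on the 5p arm when its start number was under 35 and on the 3p arm otherwise, and the tags of an arm were summed.

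The libraries came from B16F1, an established pigment-forming melanoma cell line derived from C57BL/6J mouse skin. A first group of 3 libraries was from unexposed control cells. A second group of 3 libraries was from cells grown with 5 mM L-Tyr (L-tyrosine, the amino acid from which melanin is made). The last 3 libraries were from cells grown with 5-Brd-2′-dU (BrdU, or 5-bromo-2′-deoxyuridine, which cells build into DNA in place of thymidine) at 2.5 µg/mL. All exposures ran for 72 h in the same line without genetic change, and the study asked which miRNAs differ when these cells lower their proliferation and change their pigmentation. The study's methods call its replicates independent unless stated otherwise, and the labels do not say whether the 3 libraries of a group were separate cultures, so p-values measure the spread between these libraries, which may be technical in part.

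A miRNA is cut from the stem of a hairpin, and either strand of the stem, the 5p or the 3p arm, can be loaded into Argonaute. The loaded strand pairs with messenger RNAs mainly through its seed, bases 2 to 8 from its 5′ end, so a shift of the first base gives another seed. In melanoma, miR-149 is known mostly for its 3p arm, described in human cells as a p53-responsive miRNA that lowers the kinase GSK3A and thereby stabilises the survival protein MCL1. The 5p arm is described in other tumours as a brake on proliferation and migration.

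The mouse hairpin of 66 nt matched the NCBIM37 (mm9) genome at 1 place, chr1:94746955-94747020 on the plus strand. It lies in intron 1 of Gpc1, which codes for glypican 1, a cell-surface heparan sulfate proteoglycan, and it is read in the direction of that gene. The intron spans chr1:94728675-94749923, and the hairpin begins 18280 nt after exon 1 and ends 2903 nt before exon 2. Within the hairpin, miR-149-5p covers chr1:94746958-94746980 and miR-149-3p covers chr1:94746998-94747019. The mature sequences from RefSeq (GRCm38.p6) are shown because the tags are read against them, with the seed in capitals.
miR-149-5p: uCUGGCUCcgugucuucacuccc
miR-149-3p: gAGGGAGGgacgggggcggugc

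No other mouse miRNA in the RefSeq table had the seed of miR-149-5p. The seed of miR-149-3p was shared by miR-1943-5p, miR-6967-5p and miR-7016-5p. Over all 9 libraries miR-1943-5p had 75 counts and miR-7016-5p had 11 counts, while miR-6967-5p was not listed. The sequences with counts are shown for the shared seed.
miR-1943-5p: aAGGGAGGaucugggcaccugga
miR-7016-5p: cAGGGAGGggagcgagaguag

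The tags of miR-149-5p started at 7 different bases of the mature arm, from base 1 to base 7. Of the 21 tags, 18 were exact stretches of the hairpin, and 3 carried a substitution and held 1.32% of the counts. The substitutions, with the hairpin's base first and positions counted from 1 at the 5′ end of the tag, were T20A in a tag from base 1, C19T with C20T in a tag from base 3, and C10A in a tag from base 5. The tags that the comparisons below turn on are shown with bases 2 to 8 of each tag in capitals, so that the change of seed with the first base can be read.
base 1, 20 nt: tCTGGCTCcgtgtcttcact
base 3, 20 nt: tGGCTCCGtgtcttcactcc
base 3, 19 nt: tGGCTCCGtgtcttcactc
base 4, 20 nt: gGCTCCGTgtcttcactccc
base 4, 19 nt: gGCTCCGTgtcttcactcc
base 5, 19 nt: gCTCCGTGtcttcactccc
base 6, 18 nt: cTCCGTGTcttcactccc

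Only tags from base 1 begin with the seed of miR-149-5p. The shifted seed of tags from base 3 equals that of miR-7671-5p, and the shifted seed of tags from base 6 equals that of miR-7683-5p. No tag sequence of mmu-mir-149 was also listed under another hairpin, although some tags of 18 nt or less matched the genome at 2 or 3 places. The longest tag anywhere in the table had 20 nt, a length shared by 1747 tags, so no listed tag can span the 23 nt of miR-149-5p from end to end. Whether longer reads were shortened or counted elsewhere could not be settled, so the starts and ends given below are those of listed tags and may not be those of the RNA molecules.

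Library totals lay between 144452 and 424122 counts. The sum of the melanocytic miRNAs miR-211-5p and miR-204-5p was above 0 in all 9 libraries. It was lowest in the third 5-Brd-2′-dU library, at 5135 CPM (counts scaled to a library of 1000000, here with the TMM factors of edgeR). The other 8 libraries had 7417 to 26061 CPM. The 5-Brd-2′-dU libraries reached at most 7574 CPM, and the control libraries had at least 9758 CPM. The third 5-Brd-2′-dU library stood apart. All 4 stromal miRNAs of the marker list had counts, and their sum was 196486 CPM in that library and 1406 to 7941 CPM in the other 8. The endothelial miR-126a-3p was at 5119 CPM there and at 53.1 to 260 CPM elsewhere. The 3 blood miRNAs summed to 4136 CPM there and to 5.03 to 273 CPM elsewhere, with miR-142a-3p at 0 in all libraries. Of the muscle markers only miR-1a-3p was found, at 173 CPM in that library and at 0 elsewhere, and miR-133a-3p and miR-206-3p were at 0. The neural sum, miR-9-5p with miR-124-3p at 0, was 1634 CPM there and 1646 to 4991 CPM elsewhere, and the liver miR-122-5p was at 15.7 CPM there and at 0 to 83.9 CPM elsewhere. The part of these RNAs in the values below was not tested. Values of the 5-Brd-2′-dU comparisons without that library, chosen for the tags and lists after seeing the data, stand beside the results.

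miR-149-5p was a moderately abundant miRNA of these cells, ranking 65 of 742 arms and names with a count. It held 7097 of the 7121 counts of the hairpin. The control libraries had 471, 1147 and 684 counts, or 2227, 2572 and 3011 CPM. The L-Tyr libraries had 746, 1059 and 784 counts, or 5005, 4139 and 4050 CPM. The 5-Brd-2′-dU libraries had 334, 1008 and 864 counts, or 1927, 2268 and 3137 CPM. Every L-Tyr library was above every library of both other groups, whereas control and 5-Brd-2′-dU libraries overlapped. The group means were 2603 ± 393 CPM (SD, n = 3) in control cells, 4398 ± 527 CPM (SD, n = 3) with L-Tyr and 2444 ± 624 CPM (SD, n = 3) with 5-Brd-2′-dU. As a share of the raw library total, miR-149-5p made up 0.237 to 0.27% in control cells, 0.445 to 0.516% with L-Tyr and 0.195 to 0.262% with 5-Brd-2′-dU. These are shares of a bulk library, so a change in the number of producing cells and a change in RNA per cell cannot be told apart.

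**Figure D1:**
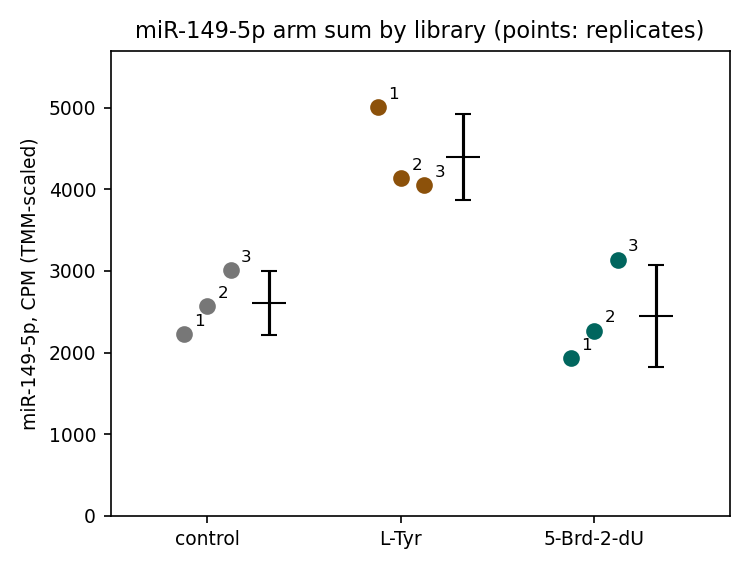
Level of the miR-149-5p arm sum in CPM (TMM-scaled, linear axis from 0) in each of 9 libraries; points are libraries with their replicate number, and the black mark with bars is the group mean ± SD (n = 3). The 3 L-Tyr libraries lie between 4050 and 5005 CPM, above the 1927 to 3137 CPM of all control and 5-Brd-2′-dU libraries.

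With L-Tyr the arm sum was 1.64-fold that of control cells, a log2 difference of 0.71 (SE 0.219, 95% interval 0.22 to 1.21). The unadjusted p of edgeR's quasi-likelihood test was 0.00984, and the Benjamini-Hochberg adjusted p over the 259 arms tested was 0.148, so the difference was not called. An unadjusted p under 0.05 was reached by 13.5% of those arms, and 2.32% of them (6 arms) were called after adjustment. All L-Tyr libraries lay above all control libraries for 10.0% of the arms tested, and 42 of the 259 had a log2 difference at least as large as that of miR-149-5p. The higher level in L-Tyr libraries was thus shared with a sizeable group of arms. The median difference over all arms was -0.10. Scaling by library totals in place of TMM gave a median of 0.06, and under that scaling, which moved the median by more than 0.1, miR-149-5p differed by 0.88 with an edgeR adjusted p of 0.0631.

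With 5-Brd-2′-dU the arm sum was 0.911-fold that of control cells. The log2 difference was -0.13 (SE 0.262, 95% interval -0.74 to 0.47), with an edgeR adjusted p of 0.845. Of the 283 arms tested 19.1% had an unadjusted p under 0.05, and 3.18% (9 arms) were called. The direction was not fixed by these libraries: the difference was -0.28 without the third 5-Brd-2′-dU library and 0.08 without the first. The interval reaches from lower to higher levels, so a difference was not detectable with this spread between libraries.

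Between the exposures, the 5-Brd-2′-dU level was 0.587-fold the L-Tyr level. The log2 difference was -0.77 (SE 0.265, 95% interval -1.38 to -0.16). By edgeR's quasi-likelihood test the unadjusted p was 0.02 and the Benjamini-Hochberg adjusted p over 252 arms was 0.255. Here 12.7% of arms had an unadjusted p under 0.05, 2.38% (6 arms) were called, and for 8.73% all 5-Brd-2′-dU libraries lay below all L-Tyr libraries. Without the third 5-Brd-2′-dU library the difference was -1.03, and with scaling by total count it was -1.04, neither of them called. This comparison shares its 5-Brd-2′-dU libraries and its L-Tyr libraries with those against control, so the 3 comparisons are not independent.

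Single tags of miR-149-5p varied far more between libraries of 1 group than their sum did. The most abundant tag, 20 nt from base 1, had 109, 387 and 70 raw counts in control cells, 138, 284 and 243 with L-Tyr, and 63, 303 and 424 with 5-Brd-2′-dU. The groups overlapped, and the highest value came from the third 5-Brd-2′-dU library. The 20 nt tag from base 4 had 61, 139 and 305 counts in control cells, 19, 102 and 58 with L-Tyr, and 68, 83 and 23 with 5-Brd-2′-dU. Its near twin of 19 nt from the same base had 59, 46 and 0 counts in control cells, 154, 106 and 109 with L-Tyr, and 49, 59 and 41 with 5-Brd-2′-dU. These tags differ by 1 base at the 3′ end, and in the third control library the longer held 305 counts while the shorter was at 0. Over the 11 tags with at least 100 counts, the median coefficient of variation within a group was 85.7% in control cells, 50.0% with L-Tyr and 69.0% with 5-Brd-2′-dU. The sum of all 21 tags of the arm had a coefficient of variation of 14.1%, 9.78% and 24.9%. Had these 21 varied independently, their sum would have given 30.1%, 18.1% and 27.6%. In control cells and with L-Tyr, tags that were low in a library were thus offset by others that were high. Counting error alone gives the arm sum 2.95 to 5.47%.

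Of the tags, 9 passed the filter on low counts for L-Tyr against control and 10 for each comparison with 5-Brd-2′-dU, and edgeR called none of them in any comparison. Over the whole table edgeR called 0.0796% of 1256 entries for L-Tyr against control, 0.0% of 1488 for 5-Brd-2′-dU against control and 0.162% of 1234 for 5-Brd-2′-dU against L-Tyr. Entries with an unadjusted p under 0.05 made up 9.63%, 10.5% and 7.29%. Among the tags of miR-149-5p, 0, 1 and 1 had an unadjusted p under 0.05. DESeq2 called 43 of 4269 entries for 5-Brd-2′-dU against control, none of them from mmu-mir-149. With so small a share called, and 13 tags of mmu-mir-149 with a DESeq2 adjusted p, this absence does not set the hairpin apart.

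For L-Tyr against control the log2 differences of tested tags ran from -1.28 for the 20 nt tag from base 4 to 2.35 for the 17 nt tag from base 6. The most abundant tag differed by 0.85 (SE 0.449, edgeR adjusted p 0.63). The 19 nt tag from base 4 differed by 2.28 (SE 1.12, edgeR adjusted p 0.589). The signs of the tags were therefore mixed under a sum that was higher with L-Tyr. The 19 nt tag from base 3 failed the filter here, with 0, 1 and 2 counts in control cells and 4, 14 and 116 with L-Tyr. DESeq2, which keeps such tags, called it with a log2 difference of 6.01 (SE 1.61, DESeq2 adjusted p 0.0118), while calling 1.28% of 3829 entries. Most of its L-Tyr counts came from 1 library.

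For 5-Brd-2′-dU against control the tag with an unadjusted p under 0.05 was again the 19 nt tag from base 3, with 0, 1 and 2 counts in control cells and 6, 30 and 44 with 5-Brd-2′-dU. Its log2 difference was 4.45 (SE 1.67, edgeR unadjusted p 0.0227, adjusted p 0.338), a value that depends on the near absence of counts in control cells. The most abundant tag differed by 0.59 (SE 0.596, edgeR adjusted p 0.839), opposite in sign to the arm sum. Without the third 5-Brd-2′-dU library it differed by -0.12 (SE 0.587), and the 19 nt tag from base 3 failed the filter. For 5-Brd-2′-dU against L-Tyr, the 19 nt tag from base 4 differed by -1.77 (SE 0.648, edgeR unadjusted p 0.0193, adjusted p 0.459). No tested tag of this comparison had a difference above 0. By raw count, without scaling for library totals, the 19 nt tag from base 4 was lower in every 5-Brd-2′-dU library. The share of all entries that separate in this way was not computed. Without the third 5-Brd-2′-dU library this tag differed by -1.61 (SE 0.756, edgeR unadjusted p 0.0566), and 0 of 12 tested tags were called in either comparison with 5-Brd-2′-dU. Against L-Tyr some tags were then above 0, at 0.73 (19 nt, base 2), 0.11 (20 nt, base 4), 0.08 (18 nt, base 4) and 0.05 (19 nt, base 5). The other tested tags were below 0.

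**Figure D2:**
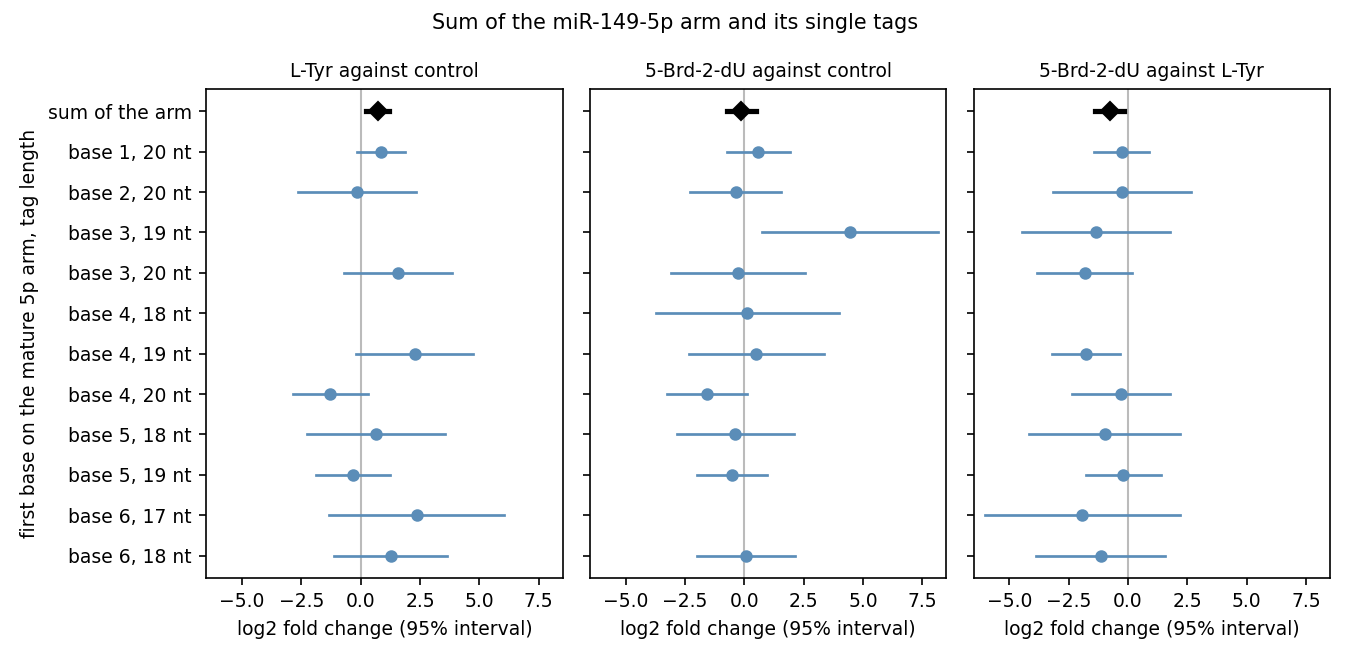
Log2 fold change with its 95% interval (edgeR quasi-likelihood fit, 6 libraries per panel) for the sum of the miR-149-5p arm (black diamonds) and each tested tag (blue circles), tags named by the base of the mature arm where they begin and by their length; a missing circle is a tag that failed the filter on low counts. The interval of the arm sum is narrower than that of any tag and lies above 0 for L-Tyr against control, and the tags scatter on both sides of 0 in the first and second panel.

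Most listed miR-149-5p counts did not begin at the first base of the mature arm. Summed over libraries, 30.1% of the counts began at base 1, 6.58% at base 2, 11.9% at base 3, 23.0% at base 4, 17.4% at base 5, 9.68% at base 6 and 1.37% at base 7. Base 1 was the most used start, and base 4 came next. The share from base 1 was 23.1%, 37.3% and 10.2% in control cells, 22.3%, 29.8% and 31.0% with L-Tyr, and 18.9%, 30.2% and 50.3% with 5-Brd-2′-dU. Its lowest value belonged to the third control library and its highest to the third 5-Brd-2′-dU library, the one with stromal miRNAs. The means were 23.6 ± 13.5%, 27.7 ± 4.75% and 33.1 ± 16% (SD, n = 3 each). Exact two-sided permutation tests between groups gave p of 0.7 for L-Tyr against control, 0.5 for 5-Brd-2′-dU against control and 0.8 between the exposures. Without the third 5-Brd-2′-dU library the mean share exceeded that of control cells by 0.947 percentage points in place of 9.56, and its difference from L-Tyr was -3.18 points in place of 5.43. With 3 libraries a group the smallest p possible is 0.1, and all 12 share tests had an adjusted p of 1.0.

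**Figure D3:**
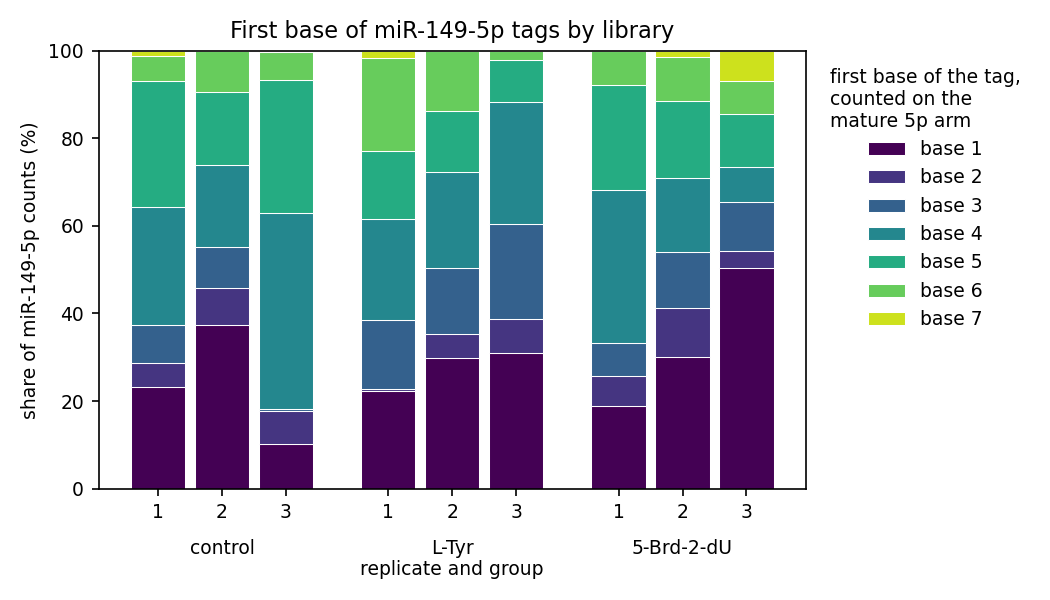
Share of miR-149-5p counts (%) by the base of the mature 5p arm at which the tag begins, as stacked bars for each library (replicate number and group below). Base 1 takes 10.2 to 50.3% and base 4 takes 8.1 to 44.6%, and for both the ranges of the 3 groups overlap, while base 3 takes 15.1 to 21.6% with L-Tyr and 0.439 to 12.6% in the other libraries. The share from base 3 was singled out after its values were seen and was not tested.

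The share of the most abundant tag also overlapped between groups. It held 22.4 ± 11.8% of the arm in control cells, 25.4 ± 6.36% with L-Tyr and 32.7 ± 15.3% with 5-Brd-2′-dU (SD, n = 3 each; exact permutation p of 0.7, 0.5 and 0.6 in the order of comparisons above). Without the third 5-Brd-2′-dU library its difference from control was 2.09 percentage points in place of 10.3, and from L-Tyr -0.976 in place of 7.23. Tags of 20 nt, the longest listed, held 57.8 ± 6.67%, 47.3 ± 9.38% and 55.5 ± 4.78% (SD, n = 3 each; exact permutation p of 0.3, 0.8 and 0.3). Tags that ended at the last base of miR-149-5p held 33.3% of all counts, from 13.1% in the third L-Tyr library to 78.7% in the third control library. The third control library thus had the lowest share from base 1 and the highest share that reached the end of the arm.

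In CPM, tags from base 1 summed to 594 ± 333 in control cells, 1201 ± 76.6 with L-Tyr and 876 ± 630 with 5-Brd-2′-dU (SD, n = 3 each). Tags from base 3 summed to 148 ± 119 CPM in control cells (13.2 to 238), 761 ± 126 CPM with L-Tyr (625 to 873) and 261 ± 106 CPM with 5-Brd-2′-dU (144 to 352; SD, n = 3 each). For base 3 every L-Tyr library was above every other library, whereas for base 1 the L-Tyr libraries (1114 to 1255 CPM) were above the control libraries (308 to 960 CPM) and within the range with 5-Brd-2′-dU (364 to 1579 CPM). Start sums were not tested, and base 3 was singled out after its values were seen. The arm sum that holds these tags separated in the same way. All L-Tyr libraries lay above all control libraries for 10.0% of arms tested. Within base 3 the L-Tyr counts differed by library, at 4, 14 and 116 for the 19 nt tag and 84, 143 and 53 for the 20 nt tag. Tags from base 5 were not highest with L-Tyr, with 664 ± 247, 579 ± 195 and 412 ± 43.8 CPM (SD, n = 3 each).

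The spread of starts was no feature of miR-149-5p alone. Among 98 arms with at least 500 counts in exact tags, the share from the first mature base had a median of 24.7% and a range of 0 to 89.6%, and miR-149-5p was at 29.9%, above 54 of them and below 43. Its share of exact counts ending at the last mature base was 33.7%, against a median of 28.1%. In reproducibility it stood toward the better end, since the median of its 3 within-group coefficients of variation was 15.1%, against a median of 32.4% over 97 arms, and 17 arms had a lower value. The arms were not matched for abundance, and miR-149-5p had 7003 exact counts where 500 sufficed. The arms nearest in exact count, miR-30a-3p (7011) and miR-129-2-3p (6798), were at 13.2% and 29.3%. These positions are descriptions and were not tested.

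The 3p arm was seen in 1 library. The second L-Tyr library held 24 counts of a 20 nt tag that begins at base 2 of miR-149-3p, and the other 8 libraries were at 0. The tag is shown with its bases 2 to 8 in capitals.
miR-149-3p tag, base 2, 20 nt: aGGGAGGGacgggggcggtg
In that library the 3p arm made up 24 of 1083 hairpin counts, or 2.22% (95% Wilson interval 1.49 to 3.28%). In the others a count of 0 allows a share of up to 0.262 to 0.898% of the hairpin's counts, or 7.07 to 20.8 CPM of the library total without TMM. Such intervals and limits hold for counting error alone, since the libraries were amplified and carried no molecular identifiers. The 3p arm failed the filter on low counts in all comparisons. The permutation tests of its share gave an exact p of 1.0 throughout. With counts in only 1 library that outcome was fixed in advance, so these tests carry no information. The other L-Tyr libraries did not share the signal.

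The arm sums whose log2 CPM followed that of miR-149-5p most closely over the 9 libraries were miR-30e-5p, miR-34b-3p, miR-1306-5p, miR-30d-5p and miR-10b-5p. Pearson's r was 0.90, 0.87, 0.87, 0.86 and 0.84 in that order, and Spearman's rho was 0.93, 0.92, 0.75, 0.77 and 0.73, against a median r of -0.08 over 297 arms, of which 8 exceeded 0.8. The libraries share their scaling and fall into 3 groups, so part of each r is the difference between groups. After subtraction of the group means r was 0.73, 0.90, 0.80, 0.78 and 0.04, so miR-10b-5p followed miR-149-5p between groups and not among libraries of a group. With TMM scaling the third 5-Brd-2′-dU library was the highest of its group for miR-149-5p and for each of these arms except miR-10b-5p. Its TMM factor of 0.7223 raises its CPM. Scaled by library total, miR-149-5p was at 2265.8 CPM in that library and at 2621.7 CPM in the second 5-Brd-2′-dU library. For miR-34b-3p the group's centred log2 CPM was -2.14, -2.14 and 2.05. These r values thus lean in part on that library, and r without it was not computed. miR-34b-3p had 121 counts and miR-1306-5p 136 counts in all, and their values are imprecise. The 5 arms were picked for following miR-149-5p, whose highest libraries were those with L-Tyr. A higher level of these arms with L-Tyr is thus in part set by that choice. For L-Tyr against control edgeR called 2.32% of all arms. Of the 5, miR-30d-5p, an abundant miRNA of melanoma cells, was called higher with L-Tyr, from 21200 ± 1478 CPM to 42783 ± 2658 CPM (SD, n = 3 each; log2 difference 0.97, SE 0.143, edgeR adjusted p 0.0101). miR-30e-5p had 507 ± 73.4 CPM in control cells and 782 ± 72.5 CPM with L-Tyr (SD, n = 3 each; 0.58, SE 0.412, edgeR adjusted p 0.605).

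**Figure D4:**
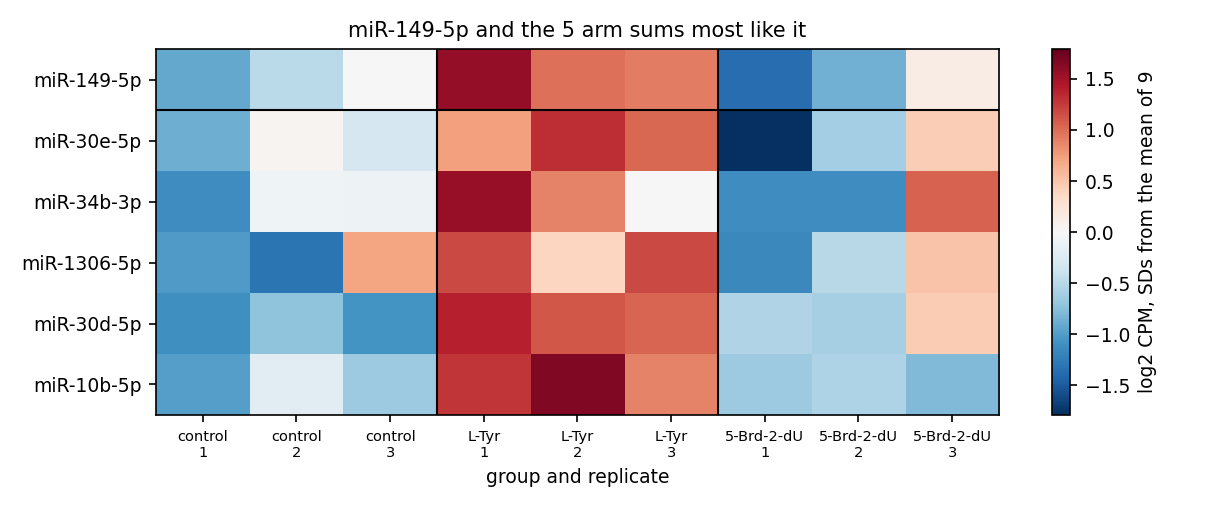
Log2 CPM of miR-149-5p and the 5 arm sums most like it in 9 libraries, each row shown in its own SDs from its mean over the 9 (red above, blue below); columns are libraries by group and replicate. The L-Tyr columns are red in nearly all rows, with miR-34b-3p near its mean in the third L-Tyr library, and most control columns are blue.

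The study's text sets miR-149-5p beside a few other miRNAs as candidate regulators of cell cycle genes, and because it chose them on these samples, their direction is no independent evidence. All 7 names were found, as 9 arms. For L-Tyr against control edgeR called 4 of these arms higher and 0 lower, where 2.32% of all arms were called, with a median log2 difference of 0.97 against -0.10 over all arms. These were miR-30d-5p and 3 arms of miR-129, namely miR-129-1-5p (1.10, SE 0.199), miR-129-2-5p (1.15, SE 0.198) and miR-129-2-3p (2.15, SE 0.393), each with an edgeR adjusted p of 0.0207. None of the 4 was called without the first or the third control library or without the first or the third L-Tyr library, with edgeR adjusted p of 0.0531 to 0.159, and the miR-129 arms were also lost without the second control library (0.112). The 5p arms of the miR-129 hairpins share tags and are not separate observations. For 5-Brd-2′-dU against control the same 3 miR-129 arms were called higher, at differences of 1.46, 1.51 and 1.60 (edgeR adjusted p 0.0236 each), and 0 arms lower, where 3.18% of all arms were called, with a median of 0.67 against -0.09. These calls were lost with total-count scaling (edgeR adjusted p 0.071), with a replicate block (0.087) and without the first or second control library (0.123 and 0.115), and that of miR-129-2-3p also without the second 5-Brd-2′-dU library (0.0562). Without the third 5-Brd-2′-dU library 4 arms were called higher, these 3 and miR-99b-5p (1.20, SE 0.237, edgeR adjusted p 0.0368). For 5-Brd-2′-dU against L-Tyr 0 arms were called higher and 1 lower, where 2.38% of all arms were called, with a median of -0.39 against 0.11. The arm called lower was miR-211-3p, from the melanocyte gene Trpm1 (-2.69, SE 0.379, edgeR adjusted p 0.0121). It was called without the third 5-Brd-2′-dU library (-2.83, edgeR adjusted p 0.0309), and lost with a replicate block (0.079), without the third L-Tyr library (0.115) and without the second 5-Brd-2′-dU library (0.0548). miR-99b-5p differed from control by 0.66 with L-Tyr (edgeR adjusted p 0.148) and by 1.08 with 5-Brd-2′-dU (edgeR adjusted p 0.0597). miR-320-3p and miR-23b-3p had adjusted p between 0.367 and 0.939 by edgeR in all comparisons. The study gives this pair as under-expressed with L-Tyr, unlike the others of the list, and the list medians pool both kinds. Here their arm sums, which add up all tags, differed from control by 0.11 (SE 0.313) and 0.23 (SE 0.197) with L-Tyr. Each pair of comparisons shares a group of libraries.

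miRNAs known to respond to p53, the damage-activated transcription factor, were set beside miR-149 as well. Of 11 names 10 were listed, as 11 arms, and 5 arms passed the filter for L-Tyr against control, 6 for 5-Brd-2′-dU against control and 7 between the exposures. edgeR called 0 of them in each comparison, where 2.32%, 3.18% and 2.38% of all arms were called, so among so few arms a count of 0 does not set the list apart. Their median log2 differences were 0.03, 1.98 and 0.49, against -0.10, -0.09 and 0.11 over all arms. The median with 5-Brd-2′-dU includes miR-143-3p (5.74, SE 1.74, edgeR adjusted p 0.124) and miR-145a-5p (3.50, SE 2.02, edgeR adjusted p 0.388), which are also stromal markers, far higher in the third 5-Brd-2′-dU library. Without that library they differed by 1.11 (SE 0.358) and 0.70 (SE 2.17), and 0 of 8 tested arms were called in either comparison. The median was then 1.56 against control and 0.84 against L-Tyr, but over changed sets of arms. miR-34c-5p (5.56 and 8.21, 72 counts in all) and, against control, miR-215-5p (2.44, 67 counts in all) passed the filter only there. Both had their highest mean with 5-Brd-2′-dU, so these medians cannot be set beside those of all libraries. In the other direction, miR-34b-3p (121 counts in all) differed from L-Tyr by -7.93 (SE 2.68) without that library, in place of -1.44 (SE 1.99). miR-34a-5p, the best known of the list, had 23 counts in all and was not tested.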

How the data were processed

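Small RNA libraries of B16F1 cells (3 control, 3 L-Tyr, 3 5-Brd-2′-dU) were grouped by the sample labels, and all 9 were used. The authors deposited raw counts per tag and per mature name, made with the BaseSpace small RNA workflow against mm9 and miRBase. Their normalized counts and comparison tables (fold changes and p-values) were not used. Here the counts of a hairpin's tags were summed by arm (start number under 35 for 5p). edgeR 4.0.16 in R 4.3.3 was run on whole tables, of arm sums and of single entries, with TMM factors, filterByExpr and quasi-likelihood tests on the 6 libraries of each comparison, Benjamini-Hochberg adjustment and calls at an adjusted p under 0.05. The procedure was tested on simulated data. Shares were compared by exact permutation tests. Correlations used log2 CPM (prior count 2). Tags were matched to NCBIM37 in Python 3.11.15, which also drew the figures.

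All tags of mmu-mir-149 are described. Also named are the 5 arm sums with the highest Pearson correlation, a list of miRNAs set beside miR-149-5p by the study, p53-linked miRNAs, miRNAs with a shared seed, and cell type markers. The members and lists were chosen with earlier results of these data known. Alternatives were other scalings (DESeq2 1.42.0 size factors, total count, without the most abundant entry), filters (none, mean count of at least 50), DESeq2's Wald test, a fit of all 9 libraries, a replicate block, the most abundant tag, tags of at least 17 nt, and leaving out each library. Repeating these settings for the called miRNAs of the study's list was chosen after seeing the data.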

Additional observations from a re-analysis of the deposited data

How the results depend on the processing

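The miR-149-5p arm sum was not called in any comparison under any of 16 alternatives, whose adjusted p ran from 0.0631 to 0.63 for L-Tyr against control, 0.749 to 0.999 for 5-Brd-2′-dU against control and 0.126 to 0.996 between the exposures (edgeR or DESeq2). The log2 difference for L-Tyr against control kept its sign, at 0.55 to 0.78 when a library was left out and 0.62 to 0.88 otherwise, as did that between the exposures (-1.03 to -0.65, and -1.04 to -0.27). That for 5-Brd-2′-dU against control (-0.13) ran from -0.28 to 0.08 when a library was left out, reversing without the first 5-Brd-2′-dU library (0.08), and was 0.59 for the most abundant tag; the cause was not tested. With a replicate block the differences were 0.72, -0.15 and -0.79 (edgeR adjusted p 0.185, 0.869 and 0.357). Same-numbered libraries did not deviate together (r from -0.109 to 0.039). With so few libraries a group, this cannot settle whether the numbers pair them. DESeq2 called 1 tag of mmu-mir-149 for L-Tyr against control, and edgeR 0.

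Leaving out a library moved the share from base 1 between -2.53 and 11.0 percentage points for L-Tyr minus control and between -3.18 and 12.6 for 5-Brd-2′-dU minus L-Tyr. For the most abundant tag the ranges were -3.0 to 8.75 and -0.976 to 14.1, and for the 3p arm 0 to 1.11 and -1.11 to 0. Of the 5 arm sums most like miR-149-5p, 2 were among the first 5 with total-count scaling and 3 with Spearman's rho.

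Calls over all arms moved by more than 1.5 times: for L-Tyr against control 6 became 14 without a filter, 19 with DESeq2 and 0 to 10 when a library was left out; for 5-Brd-2′-dU against control 9 became 50, 28 and 1 to 15, with 3 by total count and 1 with the replicate block; between the exposures 6 became 30, 16 and 0 to 5, with 3 in the fit of all libraries and 0 with the block. Over single entries, 1, 0 and 2 calls became 11, 85 and 47 without a filter and 49, 43 and 40 with DESeq2, and when a library was left out 1 to 2, 0 to 14 and 0 to 3. The spread between libraries exceeds the counting error of the arm sum (334 to 1147 counts per library). For single tags the spread was not set against counting error. Low counts limit the rarer tags and the 3p arm.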
